A study of Mus musculus with 6 samples.

Results

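Natural killer (NK) cells and cytotoxic T lymphocytes kill target cells by releasing granules, and this report follows 10 genes of that program through sorted bone marrow B cells: Gzma, Gzmb, Prf1, Nkg7, Ccl5, Klrd1, Klrb1c, Il2rb, Cd3e and Cd8a. The members were chosen by gene symbol, as every probe set (a set of short probes for 1 transcript) whose single gene symbol is one of these. This gave 15 probe sets of 9 genes, out of 45037 probe sets that are not array controls and 18193 genes with a probe set of their own. Klrb1c had none, because its only probe set is also assigned to Klrb1b, and that probe set is given here but not counted.

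Perforin, the product of Prf1, makes pores through which the serine proteases granzyme A and granzyme B, encoded by Gzma and Gzmb, enter the target cell. Nkg7 encodes a membrane protein of the granules, and Ccl5 a chemokine made by activated T and NK cells. Klrd1 encodes CD94, the partner of NKG2 receptors, Klrb1c the antigen NK1.1, and Il2rb the receptor chain shared by interleukin 2 and interleukin 15, on which NK cells depend. Cd3e and Cd8a belong to the T cell receptor complex and to the CD8 co-receptor. None of these genes defines the B lineage, so their signal in B cell samples may bear on how far other lymphocytes were removed. Whether the B cells themselves make some of these transcripts was not tested.

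RNA came from bone marrow B cells of C57BL/6 mice of mixed sex, aged 8 to 12 weeks and given no treatment, measured on 6 Affymetrix arrays. Before sorting, antibodies to DX5, CD3, Gr1, CD11b and Ter119 were used to deplete cells, which targets T cells, erythroid cells, myeloid cells and, through DX5, NK cells. The remaining cells were sorted for surface Igκ or Igλ. The 3 groups of 2 arrays were Igκ+ cells with the genotype label mb-1/TAK1f/f (called TAK1-deficient here, since the series title names TAK1-/- cells), Igκ+ cells labelled mb-1/TAK1+/+ and Igλ+ cells labelled mb-1/TAK1+/+ (both called wild-type). All groups carry mb-1, another name of the B lineage gene Cd79a, and the labels do not say whether it drives a recombinase. TAK1 is the kinase encoded by Map3k7. Its probe set brightest on the wild-type arrays fell from 2001 ± 276 (SD, n = 2) in wild-type to 473 ± 179 in TAK1-deficient Igκ+ cells (limma, Benjamini-Hochberg adjusted p = 0.000437). In that comparison 21.8% of all probe sets were called lower. Any other probe set of Map3k7, and other scalings, were not examined for it. The fall is no check of the deletion, because the position of the probes is not known. The array whose title ends in "-rep" is replicate 2 of its group. Nothing in the labels says whether the replicates are different mice. The p-values therefore cover no more than the scatter of these samples, and that scatter may be technical.

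Signals are linear intensities as deposited, with every array scaled to the same trimmed mean. As a lower limit of measurement, the 95th percentile of 27 unspiked bacterial control probe sets was taken on each array. It was 10.3 to 17.4 on the wild-type and 75.7 to 77.7 on the TAK1-deficient arrays. The TAK1-deficient arrays stood apart from the others. Their median signal was 323 to 324 against 44.9 to 59.1, their Actb 3′ to 5′ signal ratio, a sign of RNA or cRNA integrity, was 4.18 to 6.28 against 1.25 to 1.58, and their spiked hybridization controls had a geometric mean of 41197 to 47043 against 3985 to 4608. Log2 signals had a Pearson's r over probe sets of 0.432 to 0.510 across genotypes and of 0.962 to 0.984 between wild-type arrays. Probe sets are not independent replicates. Igλ+ replicate 1 stood apart among the wild-type arrays by myeloid transcripts: the summed signal of 14 probe sets of granulocyte markers was 42967 there, against 5825 and 382 on Igκ+ replicates 1 and 2 and 382 on Igλ+ replicate 2. B cell identity genes were measured everywhere, with 20 to 21 of 21 probe sets above the limit on wild-type and 19 on TAK1-deficient arrays, among them Ms4a1 (CD20, probe set 1450912_at) at 10087 to 11336 and Cd79b at 9747 to 10878 on the wild-type arrays.

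Gzma, Gzmb, Ccl5 and Il2rb (probe set 1448759_at) were clearly above the control limit on 1 array of each wild-type group. They were near or below it on the other. Not all were bright there. On Igκ+ replicate 2, Gzmb (46.0) was close to the array median of 44.9. On Igλ+ replicate 1, Gzmb (30.2) and Il2rb (46.0) were below the median of 53.6. Prf1 and Klrd1 were measured on all 4 wild-type arrays, and Nkg7 on 3. Above the limit of unspiked controls were 6 of 15 probe sets on Igκ+ replicate 1 and 11 on Igκ+ replicate 2, where 70.5% and 67.9% of all probe sets were. On Igλ+ replicates 1 and 2 there were 13 and 6, with 73.5% and 67.5% of all probe sets. The summed signal of the 15 probe sets was 1171 and 3923 on Igκ+ replicates 1 and 2 and 2518 and 1186 on Igλ+ replicates 1 and 2. Igκ+ replicate 2 and Igλ+ replicate 1 were thus the high arrays. In bulk RNA, fewer cells of a type and less RNA per cell cannot be told apart.

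**Figure D1:**
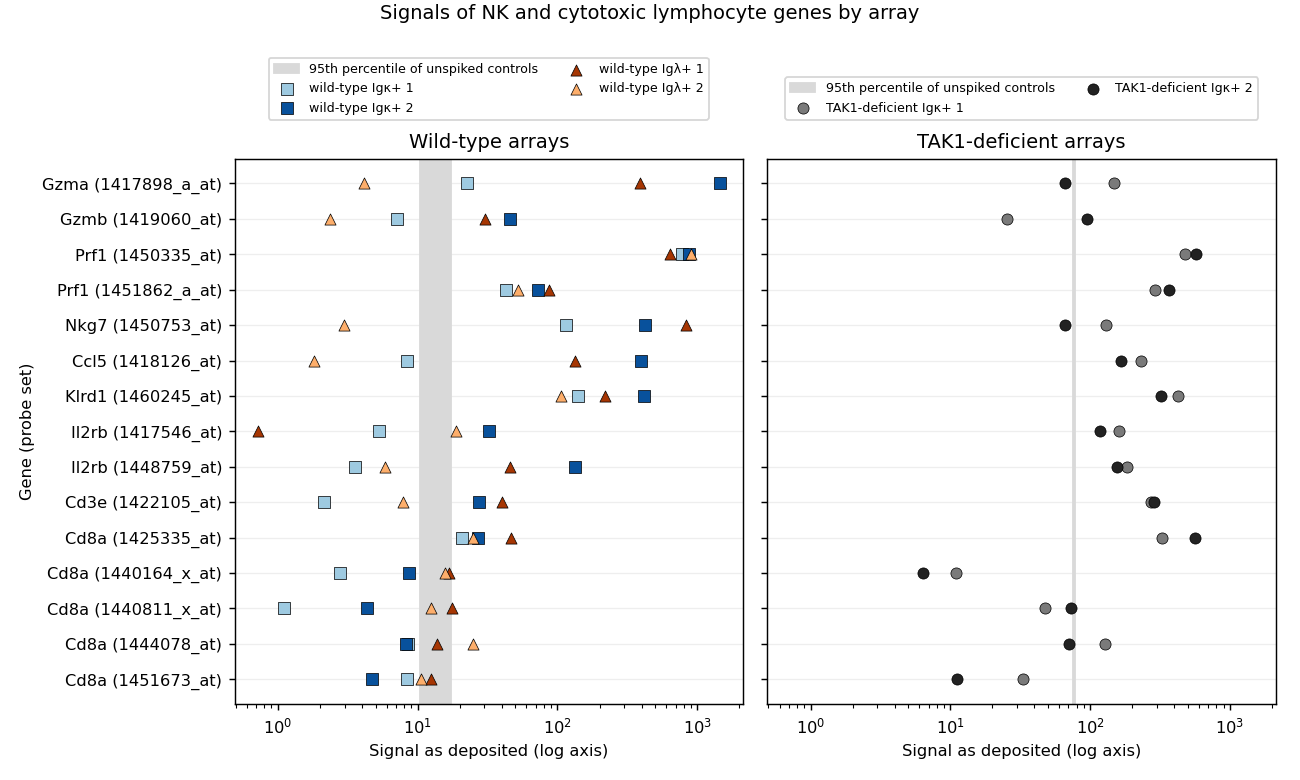
Signal as deposited (log axis) of each of the 15 probe sets on the 4 wild-type arrays (left) and the 2 TAK1-deficient arrays (right), one point per array. The grey band spans the 95th percentiles of the unspiked controls (10.3 to 17.4 on the left, 75.7 to 77.7 on the right). Gzma, Ccl5 and Nkg7 are high on Igκ+ replicate 2 and Igλ+ replicate 1 and low on Igλ+ replicate 2, while the Prf1 points of 1450335_at lie close together at 636 to 896 on the wild-type arrays.

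The promoters shown are those of Gzma, Gzmb and Nkg7, each higher on Igκ+ replicate 2 and Igλ+ replicate 1 than on the other array of the group, and of Prf1, the granule gene with the smaller differences. Each line gives the 250 bases before the RefSeq start of the gene (assembly GRCm38.p6), 5′ to 3′ on the strand of the gene. Capitals mark TGTGGT or its reverse complement ACCACA, the core letters bound by RUNX factors.
Gzma, chr13:113100982-113101231 (minus strand): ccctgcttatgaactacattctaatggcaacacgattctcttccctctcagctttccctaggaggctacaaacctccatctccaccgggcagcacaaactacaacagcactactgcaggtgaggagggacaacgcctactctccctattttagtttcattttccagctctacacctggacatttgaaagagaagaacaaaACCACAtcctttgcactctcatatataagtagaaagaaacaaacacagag
Gzmb, chr14:56262335-56262584 (minus strand): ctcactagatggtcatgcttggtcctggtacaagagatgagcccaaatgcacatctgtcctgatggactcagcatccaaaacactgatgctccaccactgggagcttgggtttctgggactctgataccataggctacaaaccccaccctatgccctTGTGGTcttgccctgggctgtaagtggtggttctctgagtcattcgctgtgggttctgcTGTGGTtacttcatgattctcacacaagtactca
Nkg7, chr7:43436888-43437137 (plus strand): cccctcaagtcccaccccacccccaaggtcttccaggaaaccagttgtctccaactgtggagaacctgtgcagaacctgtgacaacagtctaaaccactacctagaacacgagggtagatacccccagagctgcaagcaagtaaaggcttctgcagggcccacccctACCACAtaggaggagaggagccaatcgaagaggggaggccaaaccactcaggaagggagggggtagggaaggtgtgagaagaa
Prf1, chr10:61297586-61297835 (plus strand): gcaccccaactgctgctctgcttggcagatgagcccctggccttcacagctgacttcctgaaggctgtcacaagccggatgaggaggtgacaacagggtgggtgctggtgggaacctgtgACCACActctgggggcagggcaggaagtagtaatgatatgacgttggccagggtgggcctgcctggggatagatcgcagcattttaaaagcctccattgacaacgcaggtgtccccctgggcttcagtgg
Of the 10 genes, 7 had a promoter in the RefSeq table. TGTGGT, searched on both strands, was in 5 of the 7 (these 4 and Klrb1c, not Cd3e or Cd8a), against 14.0% of 32851 promoters of the same length. The ETS core AGGAAG was in 4 of 7 (Nkg7, Prf1, Klrb1c, Cd3e), against 29.5%, and the T-box core AGGTGT in 4 of 7 (Gzma, Nkg7, Prf1, Cd3e), against 11.8%. These motifs cannot overlap one another by more than a few letters, were chosen with the members known, and are a description of letters, not of binding.

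Among the granule genes, Gzma varied most visibly. Its signal was 22.6 and 1457 on Igκ+ replicates 1 and 2 and 387 and 4.12 on Igλ+ replicates 1 and 2. The groups overlap, since each holds 1 high and 1 low array, and the difference between replicates was 64.4-fold in Igκ+ and at least 22.2-fold in Igλ+ cells. An array below its control limit is taken at that limit in such a fold. Gzmb followed the same arrays at a lower signal, with 7.13 and 46.0 on the Igκ+ arrays and 30.2 and 2.34 on the Igλ+ arrays. The low array of each pair was below the control limit, so the replicates differed by at least 3.43-fold and 1.73-fold.

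Prf1, the perforin gene, was measured by 2 probe sets, whose signals differed little between replicates. Probe set 1450335_at had 783 and 866 on the Igκ+ arrays and 636 and 896 on the Igλ+ arrays, within 1.11-fold of each other in Igκ+ cells. Probe set 1451862_a_at had 43.1 and 73.0, then 86.8 and 51.9. This probe set was higher on the arrays with high Gzma, by 1.69-fold and 1.67-fold, while 1450335_at was the lower of its pair on Igλ+ replicate 1. Every Prf1 signal was above the limit.

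Nkg7 was also high on both arrays with high Gzma, in the reverse order. Its signal was 114 and 425 on Igκ+ replicates 1 and 2 and 833 and 2.99 on Igλ+ replicates 1 and 2. The highest array was thus Igλ+ replicate 1, at least 47.8-fold above its replicate, while Igκ+ replicate 2 was 3.71-fold above its own. Igλ+ replicate 1 was also the array with the most signal of granulocyte markers, of basophil and mast cell markers (summed signal 11189, against 1971, 317 and 213 on Igκ+ replicates 1 and 2 and Igλ+ replicate 2) and of monocyte and macrophage markers (12732, against 2775, 1436 and 853). On that array 14 of 14, 13 of 13 and 24 of 24 probe sets of these lists were above the limit. Their part in the Nkg7 signal was not tested.

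Ccl5 repeated the pattern of Gzma, with 8.39 and 393 on the Igκ+ arrays and 134 and 1.82 on the Igλ+ arrays. Both low arrays were below the limit, and the replicates differed by at least 29.3-fold and 7.70-fold. For Il2rb, probe set 1448759_at had 3.58 and 133 on the Igκ+ arrays and 46.0 and 5.82 on the Igλ+ arrays. The second Il2rb probe set, 1417546_at, had 5.27 and 32.3, then 0.719 and 18.7, so on the Igλ+ arrays the 2 probe sets of this gene disagreed about which replicate was higher.

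Klrd1, the CD94 gene, was above the limit on every array. It had 140.2 and 417 on the Igκ+ arrays and 218 and 106 on the Igλ+ arrays, 2.97-fold and 2.06-fold higher on the arrays with high Gzma. The probe set shared by Klrb1b and Klrb1c had 25.6 and 103 on the Igκ+ arrays and 30.2 and 45.7 on the Igλ+ arrays. There, Igλ+ replicate 1 was the lower of its pair.

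The T cell genes were dim, as was Gzmb (46.0 and 30.2 on Igκ+ replicate 2 and Igλ+ replicate 1). Cd3e had 2.15 and 27.5 on the Igκ+ arrays and 40.2 and 7.86 on the Igλ+ arrays, above the limit only on the arrays with high Gzma, at least 2.05-fold and 2.31-fold over their replicates. Cd8a had 5 probe sets. The only one above the limit on all 4 wild-type arrays, 1425335_at, had 20.8 and 27.1, then 46.2 and 24.7. The other 4 ranged from 1.10 to 24.9 and crossed the limit on 0 to 2 of the 4 wild-type arrays.

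**Figure D2:**
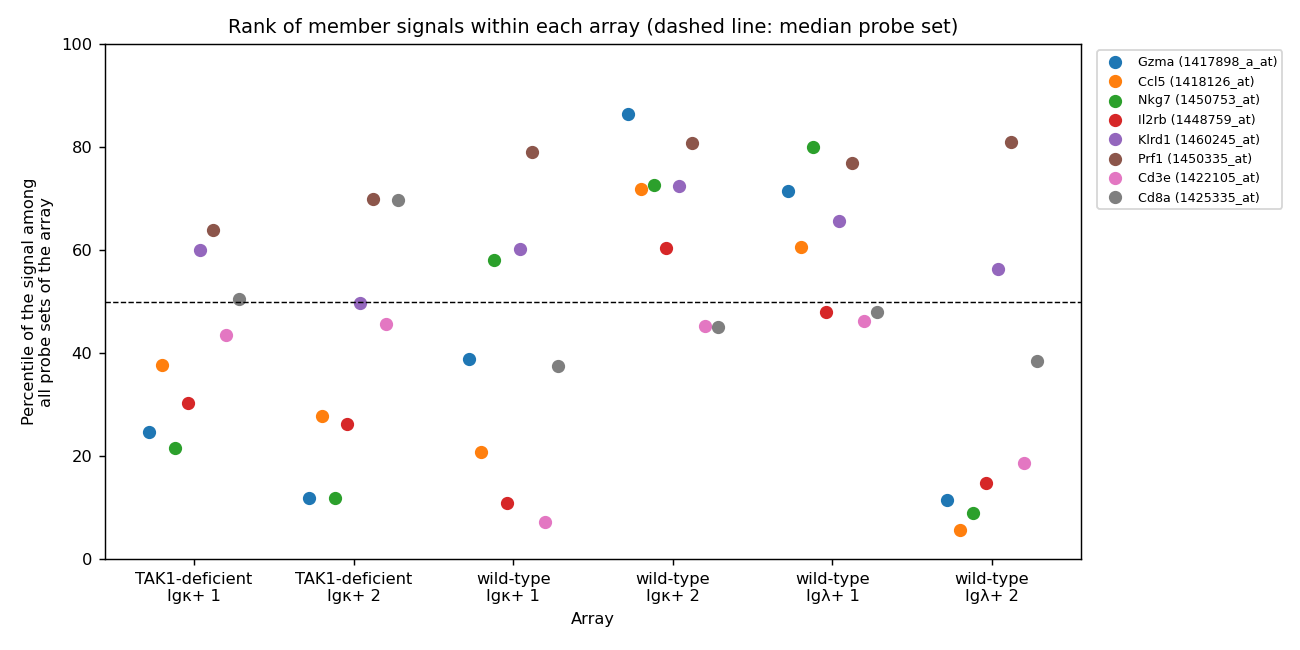
Percentile of the signal among all probe sets of the same array (0 to 100), for the probe set of 8 members that was brightest on the wild-type arrays, one point per probe set and array. Gzma sits at the 86.5th percentile on wild-type Igκ+ replicate 2 and the 71.6th on Igλ+ replicate 1, but at the 38.8th and 11.5th on their replicates and the 24.7th and 11.8th on the TAK1-deficient arrays.

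Few other transcripts divided the Igκ+ arrays in this way. In all, 24 probe sets, or 0.0533%, were at least 4-fold higher (2 units of log2(signal + 16)) on replicate 2 than on replicate 1, and Gzma, Ccl5 and Il2rb (1448759_at) were 3 of them. This comparison of single arrays, the fold and its direction were chosen after the values were seen, and it has no replicate check. Among the 24, 11 were on the lists of members, NK receptors, granule genes or NK transcription factors and cytokines, and 0 were on the T lineage or granulocyte list. A probe set shared by Klra9 and Klra3, both on the NK receptor list, was 1 of the 24 but not of the 11. It had 132 and 595 on the Igκ+ and 208 and 88.6 on the Igλ+ arrays. Trbv1, a variable gene of the T cell receptor beta chain that is on no list, was also among the 24, with 3.13 and 121 on the Igκ+ and 63.3 and 6.64 on the Igλ+ arrays. In Igλ+ cells 490 probe sets, or 1.09%, were at least 4-fold higher on replicate 1 than on replicate 2. These included Gzma, Ccl5 and Nkg7 and 13 of the 14 granulocyte probe sets. The sets shared 10 probe sets, which is 41.7% of the 24, 2.04% of the 490 and 0.0222% of all, and Gzma and Ccl5 were 2 of them. In the opposite directions, 0.233% of all probe sets were at least 4-fold higher on Igκ+ replicate 1 and 0.611% on Igλ+ replicate 2, with 0 members in either. Between the TAK1-deficient arrays 1.15% were at least 4-fold higher on replicate 1 and 1.04% on replicate 2, again with 0 members.

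Most NK receptor probe sets were higher on the arrays with high Gzma. Of 24 listed, 19 had a probe set of their own, and of these 30 probe sets 15, 24, 23 and 11 were above the limit on Igκ+ replicates 1 and 2 and Igλ+ replicates 1 and 2. Above the limit on at least 1 of the Igκ+ arrays were 25, of which 22 were higher on replicate 2, against 40.8% of all probe sets so measured. For the Igλ+ arrays it was 23, of which 20 were higher on replicate 1, against 49.7% of all. The median differences of these probe sets were 0.58 and 0.88 on the log2 scale, against -0.10 and -0.0036 over all probe sets so measured. Here and for the lists below, a probe set can enter this count through the high array alone. Such counts are therefore a description and no test. At any level, 27 of the 30 were higher on Igκ+ replicate 2 and 25 on Igλ+ replicate 1, against 17314 and 21905 of all 45037. Ncr1, which encodes the NK receptor NKp46, had 4.38 and 123 on the Igκ+ arrays and 21.3 and 0.874 on the Igλ+ arrays. Klra8, which encodes the receptor Ly49H, had 6.67 and 432, then 102 and 0.454, and Klre1 had 2.61 and 212, then 88.8 and 7.54. Klrk1, the NKG2D gene, had 6.91 and 125, then 30.1 and 6.01. These 4 were named after their values were seen. Several receptor genes are near-identical copies, and probe sets with x_at in their names may read more than 1 of them. By the fixed rule the brightest were the adaptor genes Tyrobp (1651 and 2150, then 4018 and 1908) and Hcst (267 and 422, then 580 and 198), Slamf7 (982 and 922, then 533 and 947) and Cd244a (104 and 176, then 257 and 99.3). Slamf7 was lowest on Igλ+ replicate 1, so it did not move with Gzma.

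Single granule and effector genes did the same, though their lists were mixed. Measured here means above the limit on at least 1 array of the pair. Of the granule and death ligand probe sets so measured, 14 of 26 were higher on Igκ+ replicate 2. On Igλ+ replicate 1, 19 of 27 were. For transcription factors and cytokines it was 9 of 24 and 18 of 27, against 40.8% and 49.7% of all probe sets so measured. Of the granule list, 1 probe set in each pair passed 4-fold. It was Ctsw in both, the gene of a cathepsin of cytotoxic lymphocytes, with 41.1 and 382 on the Igκ+ arrays and 159 and 1.94 on the Igλ+ arrays. Srgn, Lamp1, Ctsc and Stxbp2, the brightest of this list, are used by many cell types and had 8153 and 9050, 4461 and 3925, 4345 and 3562, and 2751 and 2780 on Igκ+ replicates 1 and 2. Among transcription factors and cytokines, Eomes, which NK cells need to mature, had 3.86 and 102 on the Igκ+ arrays and 29.7 and 5.88 on the Igλ+ arrays (probe set 1435172_at), and Xcl1, a chemokine gene of NK cells, had 14.1 and 168, then 52.1 and 5.13. Ccl3 differed, with 402 and 80.0 on the Igκ+ arrays and 2677 and 21.2 on the Igλ+ arrays, lower on Igκ+ replicate 2 like the granulocyte markers. Of this list, 2 probe sets (Eomes and Xcl1) passed 4-fold on Igκ+ replicate 2, and 7 others on Igλ+ replicate 1. Of the 7, those of Ccl3, Ccl4, Ikzf2 and Il18rap were lower on Igκ+ replicate 2 (log2 differences -2.12, -0.52, -0.12 and -0.23). Those of Nfil3 and Tbx21 were higher (0.10 and 0.76), and Cx3cr1 was below the limit on both Igκ+ arrays. Ifng was higher on the arrays with low Gzma, with 291 and 160, then 114 and 318. Ctsw, Eomes, Ifng, Ccl4, Il18rap, Nfil3 and Tbx21 were named after their values were seen.

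The T lineage list holds neither Cd3e nor Trbv1, and its measured probe sets were evenly split between the Igκ+ arrays. Of its 35 probe sets of 18 genes, 24 were above the limit on at least 1 Igκ+ array, 12 of them higher on replicate 2. For the Igλ+ arrays it was 29, of which 19 were higher on replicate 1. Of all probe sets so measured, 40.8% and 49.7% were higher on these arrays. Of the 35, 0 and 1 passed 4-fold. Their summed signal was 7034 and 8723 on the Igκ+ arrays and 6880 and 7613 on the Igλ+ arrays, most of it Cd2 (4514 to 6270) and Lef1 (462 to 1706, probe set 1454734_at). Cd3g had 28.7 and 35.6, then 24.8 and 26.8, and Cd3d had 22.1 and 47.2, then 37.5 and 11.6. Cd8b1 had 8.39 and 1.41, then 22.7 and 6.50, above the limit only on Igλ+ replicate 1. Itga2, which encodes the integrin that the antibody DX5 binds, had 1.60 and 3.14, then 17.6 and 8.68, also above the limit only there. Cd3d, Cd8b1 and Itga2 were named after their values were seen.

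**Figure D3:**
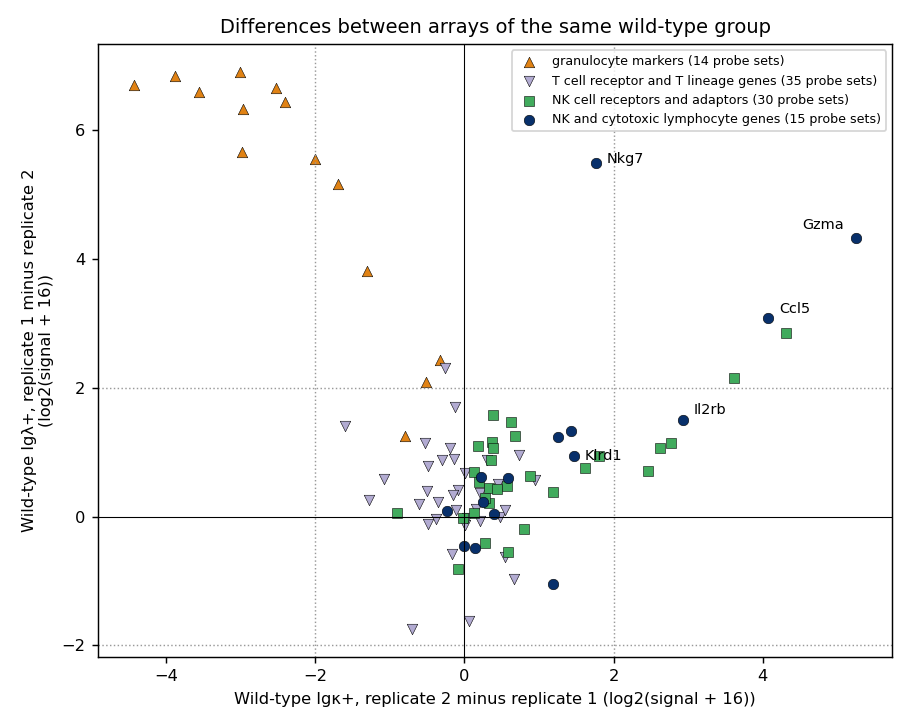
Difference between the 2 arrays of each wild-type group on the log2(signal + 16) scale: Igκ+ replicate 2 minus 1 on the horizontal axis and Igλ+ replicate 1 minus 2 on the vertical axis, one point per probe set, with dotted lines at 4-fold. Gzma (5.25 and 4.32) and Ccl5 (4.07 and 3.08) lie at the upper right with NK receptor genes, Nkg7 (1.76 and 5.48) lies higher, and all 14 granulocyte probe sets lie at the upper left.

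Wild-type Igλ+ and Igκ+ cells were then compared as groups, to ask whether the light chain went with NK and cytotoxic transcripts. No member passed, and the direction of the mean differences was mixed. In limma 0 of 15 probe sets had a Benjamini-Hochberg adjusted p under 0.05, as did 0 of all probe sets (0%), and 1 of 15 had an unadjusted p under 0.05 (1.98% of all). That was Cd8a probe set 1440811_x_at, with 1.10 and 4.35 on the Igκ+ and 17.5 and 12.5 on the Igλ+ arrays, at or near the level of unspiked controls. Gzma had 195 ± 271 (SD, n = 2) in Igλ+ and 740 ± 1014 in Igκ+ cells (log2 difference -1.41, SE 1.85). Nkg7 had 418 ± 587 against 270 ± 220, and Ccl5 68.1 ± 93.7 against 201 ± 272. For each of these genes the SD of at least 1 group exceeded the difference of the means. The median difference over the 15 probe sets was -0.12 on the log2 scale, against 0.07 over all probe sets. It was 0.50 without Igκ+ replicate 2, with 13 of 15 higher in Igλ+ cells, and 0.16 without Igκ+ replicate 2 and Igλ+ replicate 1, with 10 of 15 higher. In both cases 0 members passed. Without Igλ+ replicate 2, 25 of all probe sets and 0 members passed, and the median over the members was 0.50. The groups did not overlap for 4 of the 15, all Cd8a probe sets and all higher in Igλ+ cells (19.3% of all probe sets), and for 0 that were lower (7.88% of all). These 4 were below the control limit on both Igκ+ arrays. The Cd8a probe set above the limit on every wild-type array, 1425335_at, did overlap.

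The last comparison asked how the genes differed between TAK1-deficient and wild-type Igκ+ cells. On the TAK1-deficient arrays Gzma had 149 and 66.0, Gzmb 25.5 and 94.5, Nkg7 130.3 and 66.1, and Ccl5 230.0 and 165. Il2rb had 183 and 156 (1448759_at) and 161 and 119 (1417546_at). Cd3e had 271 and 287, and Cd8a 329 and 567 (1425335_at). Klrd1 had 428 and 321, and Prf1 476 and 569 (1450335_at) and 291 and 366 (1451862_a_at). Above the limit were 11 and 9 of the 15 probe sets on replicates 1 and 2, where 87.0% and 86.8% of all probe sets were. On replicate 2, Gzma and Nkg7 were below it, as Gzmb was on replicate 1. Only 3 on each array exceeded the array's own median, and the median percentile of the members was 26.7 and 19.9.

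As deposited, 6 of 15 probe sets were higher and 0 lower in TAK1-deficient cells (limma, Benjamini-Hochberg adjusted p under 0.05), against 56.8% higher and 21.8% lower of all probe sets (78.6% in either direction). At an unadjusted p under 0.05 there were also 6, against 80.1% of all. The 6 belong to Cd8a (3 probe sets), Cd3e, Il2rb and Prf1. Cd8a probe set 1440811_x_at was below the control limit on every array compared (47.3 and 73.0, against 1.10 and 4.35). Cd8a probe set 1444078_at (128.6 and 70.3, against 8.47 and 8.29) was above it only on TAK1-deficient replicate 1. The calls of these Cd8a probe sets thus rest mostly on signals below the limit, which is higher on the TAK1-deficient arrays. Cd8a (1425335_at) rose from 23.9 ± 4.45 (SD, n = 2) to 448 ± 168, a log2 change of 3.49 ± 0.37 (SE, limma adjusted p = 0.00011), and Cd3e from 14.8 ± 17.9 to 279 ± 11.1, a change of 3.39 ± 0.54 (limma adjusted p = 0.000794). Prf1 (1451862_a_at) had a change of 2.24 ± 0.36 and Il2rb (1417546_at) one of 2.27 ± 0.50 (limma adjusted p = 0.000863 and 0.00434). Under quantile, median and spike-in scaling both were lower in TAK1-deficient cells, and with the level adjustment Il2rb was. None of these lower values passed the threshold. As deposited, the other Prf1 probe set, 1450335_at, was lower, with 523 ± 65.9 against 824 ± 59.0 and a change of -0.64 ± 0.28 that did not pass (limma adjusted p = 0.0652). The groups did not overlap for 8 probe sets that were higher (63.9% of all) and 1 that was lower (26.5% of all).

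Gzma, Nkg7, Ccl5, Gzmb and Klrd1 did not pass as deposited. The log2 differences were -1.04 ± 1.85 (SE) for Gzma, -1.13 ± 1.57 for Nkg7, 1.08 ± 1.39 for Ccl5, 0.84 ± 0.69 for Gzmb and 0.57 ± 0.55 for Klrd1. Gzma and Ccl5 changed sign with the wild-type array left out: without Igκ+ replicate 2, Gzma was 1.59, and without replicate 1 it was -3.66, while Ccl5 went from 3.11 to -0.96. Gzmb ranged from 0.13 to 1.55, as far with a TAK1-deficient as with a wild-type Igκ+ array left out. Without Igκ+ replicate 2 and Igλ+ replicate 1, 9 of 15 probe sets passed, all higher, with Ccl5, Klrd1 and Il2rb (1448759_at) added, against 51.1% higher of all probe sets. That fit has 4 arrays and 1 residual degree of freedom, and assumes that the lone wild-type Igκ+ array varies like the TAK1-deficient ones.

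The direction over the members depended on the scaling. As deposited, the median log2 difference of the 15 was 1.08, against 1.53 over all probe sets. Quantile normalization gave -0.93 against -0.19, centring on the array medians -1.30 against -0.85, scaling to the spiked controls -0.68 against -0.66, and the level adjustment -0.89 against -0.01. In that order, the share of higher among all called probe sets was 72.3%, 44.2%, 33.3%, 30.3% and 54.2%. Under all 5 only Cd3e (0.41 to 3.39) and Cd8a 1425335_at (0.50 to 3.49) stayed higher in TAK1-deficient cells, and Gzma and Nkg7 stayed lower (-3.42 to -1.04 and -3.51 to -1.13) without passing the threshold. Cd3e passed as deposited only, and Cd8a 1425335_at also with quantile normalization and median centring. The other 4 Cd8a probe sets were each lower under at least 1 scaling. The raised control signals and Actb ratio of the TAK1-deficient arrays moved with all of these differences, their part was not tested, and batch and genotype cannot be told apart.

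**Figure D4:**
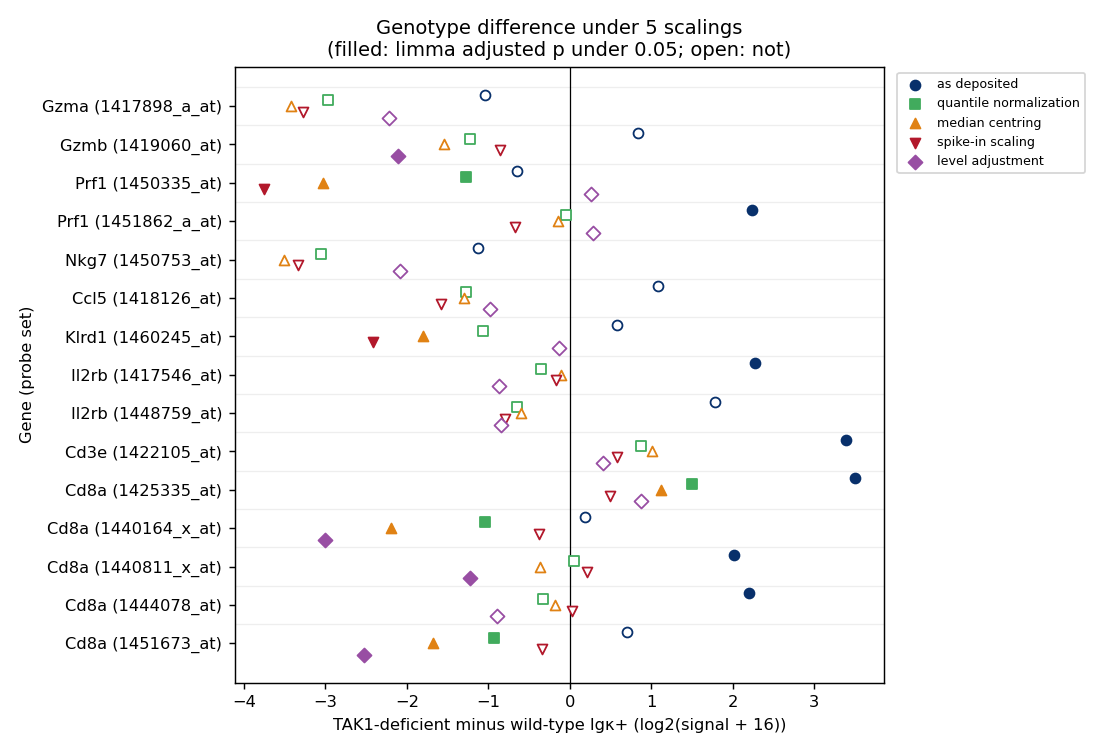
Log2 difference between TAK1-deficient and wild-type Igκ+ cells for the 15 probe sets under 5 scalings, with filled symbols for a limma adjusted p under 0.05. As deposited most points lie right of 0, with 6 filled; under the other scalings most lie left of 0, and only Cd3e and Cd8a 1425335_at are right of 0 under all 5.

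Among related genes, as deposited, the NK lists were called higher about as often as all probe sets. Of the 30 NK receptor probe sets 17 were called higher and 1 lower in TAK1-deficient cells (median log2 difference 1.76), of 32 granule and death ligand probe sets 16 and 9 (1.30), of 29 for transcription factors and cytokines 15 and 2 (1.72), and of 35 T lineage probe sets 26 and 1 (2.43), beside 56.8% and 21.8% of all. The median over all probe sets was 1.53. With each gene taken by its probe set brightest on the wild-type arrays, the largest called changes were those of the receptor genes Klrb1f (80.2 to 2857), Klrg1 (19.5 to 711) and Cd244a (140.1 to 2151), of the granzyme genes Gzmk (11.8 to 535), Gzme (5.40 to 119) and Gzmc (4.59 to 99.1), of Cx3cr1 (6.38 to 661), Ikzf2 (16.2 to 912) and Xcl1 (91.2 to 1089), and of the T lineage genes Gata3 (2.21 to 1015), Icos (16.6 to 1092) and Cd8b1 (4.90 to 387). Some other probe sets changed more than some of these on their list, among them 1435227_at of Bcl11b, a T lineage transcription factor gene (10.5 to 2372), and 1459913_at of Tnfsf10, the gene of the death ligand TRAIL (125.6 to 1637), both named after their values were seen. Gzme was below the control limit on both wild-type Igκ+ arrays and on TAK1-deficient replicate 2 (74.3). Gzmc, Cx3cr1, Gata3 and Cd8b1 were below it on both wild-type Igκ+ arrays, and Gzmc had only 107 and 91.2 on the TAK1-deficient arrays. The sizes of these changes are therefore uncertain. Ctsw had 12.6 and 5.23 on the TAK1-deficient arrays, below their control limit, against 41.1 and 382 on the wild-type Igκ+ arrays. These directions were not recomputed under the other scalings. Marker lists of other cells had summed signals of 8857 and 9531 (granulocyte) and 1704 and 1314 (erythroid) on the TAK1-deficient arrays, against 5825 and 382, and 369 and 183, on the wild-type Igκ+ arrays. Those of plasmacytoid dendritic cells had 30765 and 33486 against 36056 and 41887. Of 21 B cell identity probe sets, 5 were called higher and 12 lower in TAK1-deficient cells, among them Cd79a, which had 2880 ± 404 (SD, n = 2) against 7428 ± 1078. The part of the raised array background in them was not tested.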

How the data were processed

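RNA of 6 sorted B cell samples was labelled as biotinylated cRNA and hybridized to Affymetrix arrays, per the labels' protocols. The deposited values are linear intensities, 1 per probe set. The submitters' processing notes name MAS5, with a version not given in the sources used here. Every array has a trimmed mean (2% off each end) of 500. With 2 arrays a group, their number limits the precision.

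Gene symbols came from the annotation of the array platform. Those with several genes (932) or no listed gene (9160) stayed in the fit without a gene name. Signals were converted to log2(signal + 16), and every probe set was a feature with no filter, because many members are dim. A fold change on this scale understates changes of dim probe sets. Groups were compared with limma 3.58.1 (R 4.3.3) over all 6 arrays, with 3 residual degrees of freedom, a mean-variance trend, two-sided tests, Benjamini-Hochberg adjustment over 45037 probe sets and a threshold of 0.05. The code was tested on simulated data. Spike-in scaling used 18 spiked control probe sets, and the level adjustment removed a lowess trend (span 0.2) of each TAK1-deficient array against the mean wild-type level.

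All members are named. Of each other list, the rule takes up to 4 genes brightest on the wild-type arrays and up to 3 with the largest called change. Members and lists were chosen with earlier results of these data known. Promoters are from RefSeq. Figures were drawn with matplotlib 3.10.9.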

Additional observations from a re-analysis of the deposited data

How the results depend on the processing

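In the comparison of TAK1-deficient with wild-type Igκ+ cells, 35414 probe sets passed, against 20945 with the dimmest 40% left out, 14900 with the brightest probe set per gene and 19584 with the level adjustment. Of the members, 6 passed as higher, but 2 of the 7 left by the filter, 2 of the 9 left with the brightest probe set per gene, 1 after quantile normalization, 1 after median centring and 0 after spike-in scaling or the level adjustment. As lower, 0 passed, but 3 after quantile normalization, 4 after median centring, 2 after spike-in scaling, 4 after the level adjustment and 1 with only the 4 arrays compared. Leaving out 1 array at a time gave 31097 to 35993 probe sets, 6 to 7 members higher and 0 to 1 lower. Differences that passed as deposited or under the alternative reversed as follows. With quantile normalization, Il2rb 1417546_at was -0.36, Prf1 1451862_a_at -0.052 and Cd8a 1444078_at -0.34, 1440164_x_at -1.04 and 1451673_at -0.93. With median centring, Il2rb was -0.11, Prf1 -0.14, Klrd1 -1.81 and Cd8a 1440164_x_at -2.19, 1440811_x_at -0.37, 1444078_at -0.18 and 1451673_at -1.68. With spike-in scaling, Il2rb was -0.17, Prf1 -0.68 and Klrd1 -2.41. With the level adjustment, Il2rb was -0.88, Gzmb -2.11 and Cd8a 1440164_x_at -3.00, 1440811_x_at -1.23, 1444078_at -0.89 and 1451673_at -2.53. The cause was not tested. In the comparison of Igλ+ with Igκ+ cells 0 to 25 probe sets passed with 1 array left out, 25 without Igλ+ replicate 2, and 221 of 241 member values kept their direction, none of them passing (smallest limma adjusted p over the 241, 0.649). With the array's own median as the limit, 3 and 3 members were above it on TAK1-deficient replicates 1 and 2, 3 and 8 on the wild-type Igκ+ and 6 and 2 on the Igλ+ arrays. Same-numbered replicates did not deviate together in every pair of groups (Pearson's r over probe sets 0.00204, -0.000288 and 0.194), and the numbers were not used as a pairing. Such correlations cannot tell whether same-numbered arrays share mice or a batch. With a replicate block 35603 probe sets passed, 6 members higher and 0 lower, and in Igλ+ against Igκ+ cells 0. Leaving out Igκ+ replicate 2 and Igλ+ replicate 1 together, and all comparisons of single arrays, were chosen after seeing the data. Signals below the control limit have no order.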

Other observations

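The other probe sets at least 4-fold higher on wild-type Igκ+ replicate 2 than on replicate 1 included genes on no list, named here after their values were seen. Ctla2a and Ctla2b encode inhibitors of cysteine proteases and were read by 3 of the 24 probe sets, 1 of them shared between these near-identical genes. All 3 were also higher on Igλ+ replicate 1 than on replicate 2, by 4.76 (Ctla2a), 3.04 (Ctla2b) and 4.05 (the shared probe set) on the log2(signal + 16) scale. Peak1, Ddx6, Herc2 and Ndel1 were lower on Igλ+ replicate 1, by -0.64, -0.97, -0.24 and -0.86. In all, 20 of the 24 were higher on Igλ+ replicate 1.

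Plasmacytoid dendritic cell markers, some of which B cells share, had summed signals of 36056 and 41887 on the wild-type Igκ+ arrays and 37295 and 40681 on the Igλ+ arrays, and 0 of 25 probe sets were at least 4-fold higher on Igκ+ replicate 2. Erythroid markers summed to 369 and 183, then 1855 and 139, highest on Igλ+ replicate 1.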
